A study of Mus musculus with 36 samples.

Results

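The miR-378 family of the mouse comprised 5 mature miRNAs in these data: mmu-miR-378a-3p and mmu-miR-378a-5p, which are cut from the 2 arms of 1 precursor hairpin inside an intron of Ppargc1b, and mmu-miR-378b, mmu-miR-378c and mmu-miR-378d, which come from 3 other loci. The species prefix is left out below. Members were taken by their mature name, and all 5 were found among the 1966 mature miRNA names of the count table, of which 1387 had at least 1 read. The family was chosen by its liver differences between the diet groups, so those differences are given as a description and are not tested. The tests of liver against eWAT reuse the same liver libraries and are not independent of that choice. The libraries were small RNA-seq of liver and of epididymal white adipose tissue (eWAT), the fat depot beside the testis, from C57BL/6 wild-type male mice of the F1 generation aged 24 weeks. In each tissue 3 groups of 6 libraries were present, named LF, HF and HFLF and carrying the diet tags LFD, HFD and HFLFD, which makes 36 libraries. Chow was fed from weaning until the mice were 6 weeks old, and a specific diet for 18 weeks after that. The protocol attached to each library gives LFD as the diet, whatever its group, so it is not known from the labels whether a group name refers to the mouse or to its father. Nothing but the sample titles shows that replicates are different animals, so every p below measures the spread between these libraries.

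Ppargc1b encodes PGC-1β, a coactivator that works with nuclear receptors to raise mitochondrial biogenesis, fatty acid oxidation and, in liver, lipid synthesis and secretion. A miRNA inside an intron of the same strand can be transcribed with its host. Drosha cuts the hairpin out of the primary transcript, and Dicer then releases the 5p and 3p arms. Usually 1 arm is kept by Argonaute far more often than the other. miR-378a-3p and miR-378a-5p are known in mice as regulators of oxidative metabolism and of lipid handling in liver, muscle and fat. A miRNA selects its targets mainly through its seed, bases 2 to 8 from the 5′ end.

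The mature sequences of miR-378b, miR-378c and miR-378d are shown because they differ at so few bases that reads could match more than 1 name. They are from RefSeq (GRCm38.p6), written 5′ to 3′, with the seed in capitals. The mature miR-378b lies at chr11:88352839-88352858 (plus strand), miR-378c at chr14:46954905-46954925 (minus strand) and miR-378d at chr10:126710355-126710376 (minus strand).
miR-378b: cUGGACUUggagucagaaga
miR-378c: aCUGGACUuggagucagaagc
miR-378d: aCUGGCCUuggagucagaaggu
Counted from 1 at the 5′ end of miR-378c, miR-378b starts 1 base later and differs from it by C21A, with 19 of 20 compared bases identical. miR-378d differs from miR-378c by A6C, inside the seed, and by C21G, with 19 of 21 compared bases identical. No 2 of these 3 members share a seed. Mature sequences of miR-378a-3p and miR-378a-5p were not available here, so their seeds were not compared with these. The precursor hairpins follow, with the mature miRNA in capitals, because they show that these near-copies leave their precursors from different arms.
miR-378b hairpin: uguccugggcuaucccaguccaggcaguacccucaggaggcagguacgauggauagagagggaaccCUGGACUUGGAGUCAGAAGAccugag
miR-378c hairpin: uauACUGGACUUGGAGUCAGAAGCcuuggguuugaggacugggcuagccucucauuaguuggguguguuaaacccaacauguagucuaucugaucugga
miR-378d hairpin: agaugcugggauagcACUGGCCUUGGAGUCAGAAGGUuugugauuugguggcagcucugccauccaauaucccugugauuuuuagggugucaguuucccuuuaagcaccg
The mature miR-378b occupied bases 67 to 86 of 92, on the 3′ arm. miR-378c occupied bases 4 to 24 of 99 and miR-378d bases 16 to 37 of 110, both on the 5′ arm. How reads matching several names were assigned is not stated in the labels or processing notes, so the split of reads between members is uncertain in every value below.

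In the GRCm38 assembly with GENCODE M21 gene models, Mir378a lay on the minus strand of chromosome 18 from 61397835 to 61397900. It sat in intron 1 of Ppargc1b, on the host's own strand, 2500 to 2531 bases from the start of the host's transcripts. An annotated miRNA gene, Gm25301 (61397813 to 61397925), overlapped it on the opposite strand. Mir378b lay on chromosome 11 from 88352773 to 88352864, in intron 11 of Msi2 and on the strand opposite to that gene. Mir378c lay on chromosome 14 from 46954830 to 46954928, in an intron of Samd4 and again opposite to the host's strand. Mir378d lay on chromosome 10 from 126710282 to 126710391, and no annotated gene enclosed it. Only Mir378a of the 4 loci therefore shared a strand with the gene around it. The Ppargc1b mRNA was not analysed here.

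Total counts ran from 7866583 to 18832842 per liver library and from 9066683 to 17714156 per eWAT library. The 5 members together received 13807 to 52018 reads in a liver library and 25112 to 80155 in an eWAT library. The liver libraries held 413084 to 795838 CPM (counts scaled to a common library size) of 5 hepatocyte miRNAs against 811 to 5302 in eWAT, and the eWAT libraries held 157801 to 287177 CPM of 5 adipose and stromal miRNAs against 9486 to 21136 in liver. Striated muscle is rich in miR-378a, and the sum of 7 of its other miRNAs was 9.0 to 40.7 CPM in liver with miR-133b-3p, miR-208a-3p and miR-208b-3p at 0, and 469 to 3697 CPM in eWAT with miR-208a-3p and miR-208b-3p at 0. Of the 36 libraries, 4 stood apart. Liver LF 4 and HF 6 had reads for 316 and 368 miRNAs against 540 to 633 in the other liver libraries. eWAT LF 1 and LF 4 held 16454 and 21195 CPM of 5 epithelial miRNAs, against 96.3 to 288 in the other 4 eWAT LF libraries, 83.6 to 147 in HF and 58.5 to 162 in HFLF. The results that rest on these libraries are given with and without them. In bulk tissue, fewer cells of a type and less RNA per cell cannot be told apart.

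Within each tissue the family was led by the miR-378a-3p arm. CPM below are scaled by the trimmed mean of M-values (TMM), which corrects library sizes for differences in composition; levels were scaled within each tissue. miR-378a-3p averaged 2038 CPM over the 18 liver libraries, rank 37 of the 478 miRNAs that passed the filter on low counts, and 3518 CPM in eWAT, rank 35 of 638. miR-378c followed with 300.5 CPM in liver and 364 in eWAT. miR-378a-5p, the other arm of the Ppargc1b hairpin, averaged 73.4 and 75.5 CPM. miR-378d averaged 64.6 and 66.5 CPM, and miR-378b was lowest with 21.2 and 33.6 CPM. miR-378a-3p exceeded miR-378c, miR-378c exceeded miR-378a-5p, and miR-378d exceeded miR-378b in 18 of 18 libraries of each tissue. The neighbours miR-378a-5p and miR-378d were not separated: the former was higher in 14 of 18 liver and 13 of 18 eWAT libraries. All 5 members passed the filter in each tissue.

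**Figure D1:**
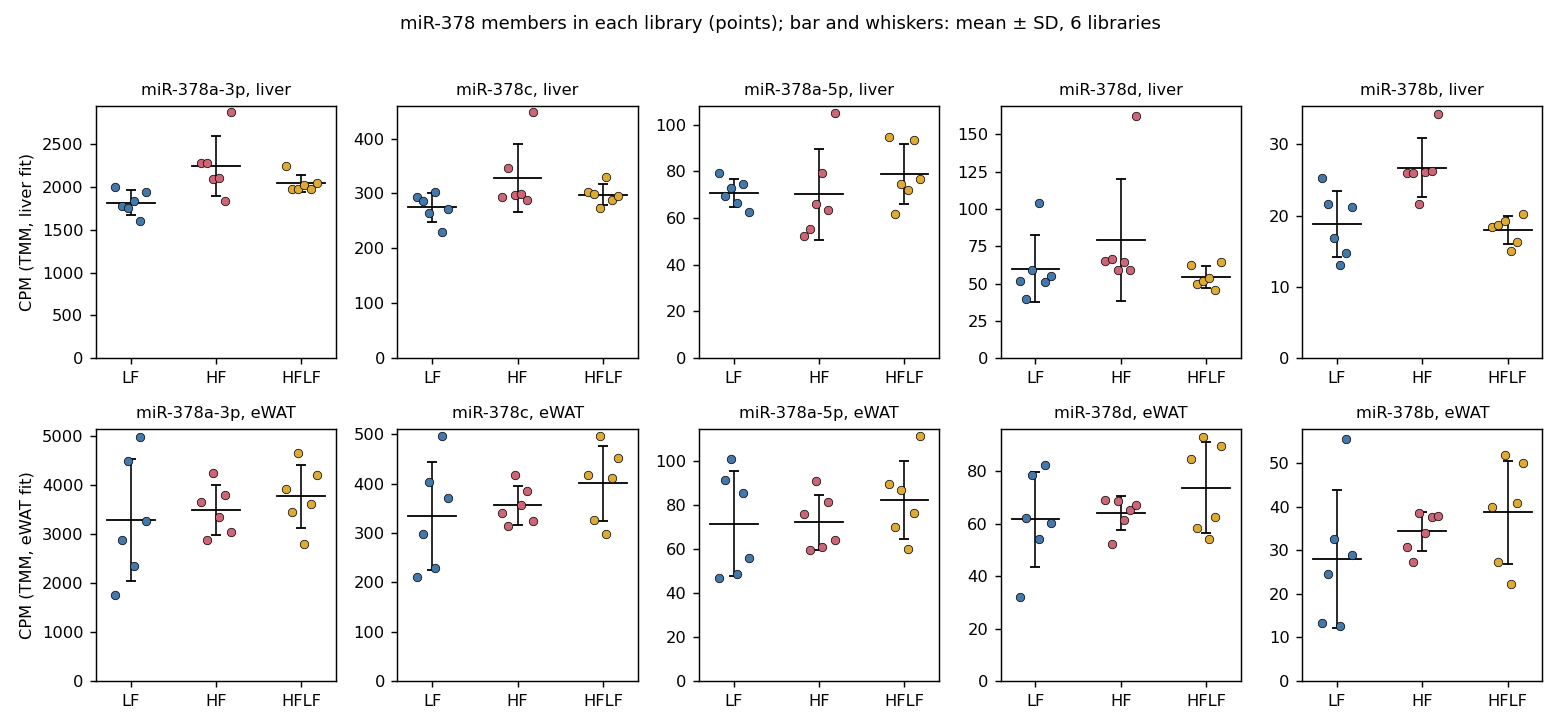
Level of each miR-378 family member in every library, in CPM scaled by TMM within each tissue (linear axes from 0), for liver and eWAT and the LF, HF and HFLF groups (points are libraries, bar and whiskers are mean and SD, n = 6 a group). The eWAT LF libraries spread widely, with miR-378a-3p between 1747 and 4984 CPM, and 1 library stands high for miR-378d in liver LF and in liver HF.

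Of the 5 members, 4 varied most among the eWAT LF libraries, and miR-378d among the liver HF libraries. miR-378a-3p had a coefficient of variation of 38.0% in eWAT LF, and of 25.5% there without LF 1 and LF 4 (n = 4). It was 14.5% in eWAT HF, 17.0% in eWAT HFLF and 5.05 to 15.6% in the 3 liver groups. Without LF 4 and HF 6 it was 8.72% in liver LF and 8.63% in liver HF (n = 5 each). For miR-378d the liver HF mean was 79.4 ± 40.9 CPM (SD, n = 6), and 62.7 ± 3.48 CPM (SD, n = 5) without HF 6. Without the 4 libraries that stood apart, the group in which miR-378d varied most was eWAT HFLF, and for the other 4 members it was still eWAT LF. Over the 18 eWAT libraries the highest value was 2.85 times the lowest for miR-378a-3p and 4.37 times for miR-378b, and without LF 1 and LF 4 these ratios were 1.78 and 2.50. In liver the corresponding ratios were 1.80 and 2.61 over all libraries, and 1.43 and 1.78 without LF 4 and HF 6. The liver ratio of miR-378d was 4.08 over all 18 libraries, 2.60 without HF 6 and 1.67 without HF 6 and LF 4. In eWAT the 2 lowest of the 6 LF libraries were LF 1 and LF 4 for all 5 members. These are the libraries with the epithelial miRNAs, and they also had the lowest erythroid sums (1667 and 2072 CPM of 4 miRNAs) and the highest striated muscle sums (3641 and 3697 CPM of 7) of the eWAT LF group. The part of those cells in the low miR-378 values was not tested.

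Whether the groups differed in eWAT was tested for the 5 members with edgeR's quasi-likelihood test over 638 miRNAs and all 18 eWAT libraries, with Benjamini-Hochberg adjustment. None of the 5 members was called in any of the 3 comparisons, where 0% of all miRNAs were called, and all groups overlapped for each member. In eWAT, miR-378a-3p ran from 1747 to 4984 CPM in LF with a median of 3072. It ran from 2886 to 4255 CPM in HF with a median of 3504, and from 2805 to 4649 in HFLF with a median of 3767. The HF and HFLF libraries all lay inside the LF range. HF differed from LF by a log2 fold change of 0.09 ± 0.20 (SE; edgeR adjusted p = 0.949), with a 95% interval from −0.30 to 0.48. HFLF differed from LF by 0.20 ± 0.20 (edgeR adjusted p = 0.713; interval −0.19 to 0.59) and from HF by 0.11 ± 0.20 (edgeR adjusted p = 0.997; interval −0.28 to 0.50). All 3 intervals include 0, and they also include differences of up to 0.59 above 0.

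The other arm and the 3 near-copies in eWAT gave values of the same kind. miR-378a-5p ran from 47.0 to 101 CPM in LF (median 70.7), from 59.8 to 91.0 in HF (median 70.1) and from 60.3 to 112 in HFLF (median 81.8). Its HF group differed from LF by 0.01 ± 0.20 on the log2 scale (edgeR adjusted p = 0.998) and its HFLF group by 0.20 ± 0.20 (edgeR adjusted p = 0.700). miR-378b ran from 12.7 to 55.6 CPM in LF (median 26.7), from 27.2 to 38.5 in HF (median 35.7) and from 22.3 to 51.8 in HFLF (median 40.3). Its HF group differed from LF by 0.29 ± 0.29 (edgeR adjusted p = 0.867). The largest estimate among the members in eWAT was that of miR-378b in HFLF against LF, 0.47 ± 0.29 (edgeR adjusted p = 0.508; 95% interval −0.11 to 1.04). miR-378c ran from 211 to 497 CPM in LF, 314 to 417 in HF and 299 to 496 in HFLF, with log2 differences from LF of 0.09 ± 0.18 and 0.26 ± 0.18 (edgeR adjusted p = 0.945 and 0.552). miR-378d ran from 32.1 to 82.5 CPM in LF, 52.3 to 69.2 in HF and 54.1 to 93.1 in HFLF, with differences of 0.05 ± 0.19 and 0.26 ± 0.19 (edgeR adjusted p = 0.974 and 0.591). Between HFLF and HF the estimates of these 4 members lay between 0.17 and 0.21, with an edgeR adjusted p of 0.997 each. All 5 members were thus estimated above LF in both other groups, with overlapping libraries and intervals that include 0.

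Over all miRNAs, edgeR called 0 of 638 (0%) in each eWAT comparison, and the unadjusted p was under 0.05 for 49, 98 and 21 miRNAs in HF against LF, HFLF against LF and HFLF against HF. DESeq2 called 16, 33 and 0. Groups did not overlap for 0%, 0.157% and 0% of all miRNAs. The median difference of the members was 0.09, 0.26 and 0.17, against −0.01, −0.04 and −0.02 over all miRNAs. HF and HFLF share the LF libraries in the first 2 of these values. Without LF 1 and LF 4 the LF mean of miR-378a-3p in eWAT rose from 3284 ± 1247 (SD, n = 6) to 3905 ± 995 CPM (SD, n = 4). HF against LF then turned below 0 for all 5 members, from −0.21 for miR-378a-5p to −0.05 for miR-378b, and HFLF against LF ran from −0.07 for miR-378a-3p to 0.10 for miR-378b. The positive estimates of HF against LF in eWAT thus rested on those 2 libraries.

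The liver values of the diet groups are those from which the family was chosen, and they are a description. miR-378a-3p ran from 1601 to 2000 CPM in LF (median 1812), from 1837 to 2883 in HF (median 2191) and from 1973 to 2245 in HFLF (median 2006). The HF libraries overlapped both other groups, and the HFLF group was the narrowest. The log2 difference was 0.30 ± 0.12 for HF against LF, 0.17 ± 0.12 for HFLF against LF and −0.14 ± 0.12 for HFLF against HF. The other arm of the same hairpin, miR-378a-5p, ran from 62.8 to 79.2 CPM in LF (median 71.2), 52.4 to 105 in HF (median 64.7) and 62.0 to 94.7 in HFLF (median 75.6). Its differences were −0.01 ± 0.18, 0.15 ± 0.18 and 0.17 ± 0.18 in the same order. The difference of miR-378a-5p between HF and LF was thus close to 0 where that of miR-378a-3p was largest.

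Of the near-copies in liver, miR-378c ran from 230 to 302 CPM in LF, 288 to 448 in HF and 273 to 330 in HFLF, with differences of 0.26 ± 0.13, 0.12 ± 0.13 and −0.14 ± 0.13. miR-378d ran from 39.8 to 104 CPM in LF, 59.0 to 163 in HF and 45.7 to 64.4 in HFLF. The differences of miR-378d were 0.41 ± 0.26, −0.14 ± 0.26 and −0.54 ± 0.26, and its highest LF library was LF 4 and its highest HF library HF 6. miR-378b ran from 13.1 to 25.3 CPM in LF, 21.6 to 34.3 in HF and 15.1 to 20.3 in HFLF, and was the 1 member of 5 whose groups did not overlap in a liver comparison, HFLF against HF. This held with TMM within liver but not on the other scales looked at, plain CPM and TMM over 36 libraries. In plain CPM the HF libraries of miR-378b started at 22.6 CPM and the HFLF libraries reached 23.2. With TMM over 36 libraries these values were 35.4 and 37.7 CPM. The differences of miR-378b were 0.50 ± 0.21, −0.07 ± 0.21 and −0.57 ± 0.21 for HF against LF, HFLF against LF and HFLF against HF. Groups did not overlap for 0.209% of the 478 miRNAs in HFLF against HF, which was miR-378b itself. The share was 0.209% in HFLF against LF and 0.418% in HF against LF. edgeR called 0% in each of the 3, with an unadjusted p under 0.05 for 16, 14 and 5 miRNAs. Without LF 4 and HF 6 the HF against LF difference was 0.22 for miR-378a-3p, −0.18 for miR-378a-5p, 0.33 for miR-378b, 0.17 for miR-378c and 0.28 for miR-378d. HFLF against HF was then −0.05, 0.31, −0.49, −0.03 and −0.20 in the same order, beside −0.14, 0.17, −0.57, −0.14 and −0.54 over all libraries. Of these, miR-378b moved least and the other 4 by over 1.5 times. HF 6 had the highest value of the HF group for all 5 members on this within-liver TMM scale. In plain CPM that held only for miR-378d. There miR-378a-3p in HF 6 was 2178 CPM, within an HF range of 1980 to 2467. In the authors' deposited log2 table, which lists 4 of the 5 members and leaves out those same 2 liver libraries, the mean HF minus LF difference was 0.26 for miR-378a-3p, −0.16 for miR-378a-5p, 0.22 for miR-378c and 0.34 for miR-378d.

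The ratio of the 2 arms needs no scaling between libraries, since numerator and denominator come from the same library. It counts reads of miR-378a-3p per read of miR-378a-5p. In liver it ran from 21.4 to 30.9 in LF (median 25.5), from 26.6 to 43.5 in HF (median 30.4) and from 21.1 to 32.0 in HFLF (median 26.7). In eWAT it ran from 31.4 to 58.4 in LF (median 46.3), from 46.5 to 55.2 in HF (median 47.7) and from 37.7 to 53.5 in HFLF (median 46.8). Every eWAT library lay above every liver library of the same group.

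**Figure D2:**
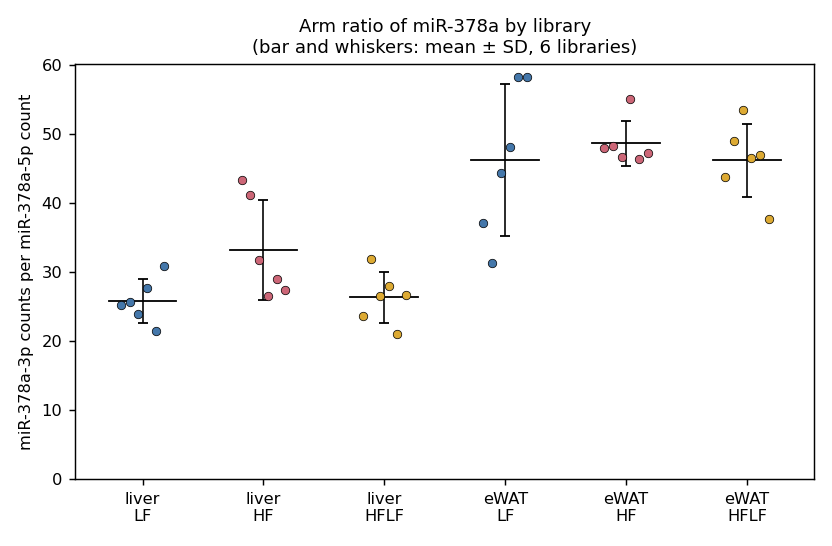
Reads of miR-378a-3p per read of miR-378a-5p in every library of liver and eWAT, by group (points are libraries, bar and whiskers are mean and SD, n = 6 a group, linear axis from 0). Within each of LF, HF and HFLF the eWAT points lie above the liver points, at 31.4 to 58.4 in eWAT and 21.1 to 43.5 in liver over the 3 groups.

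The 3p arm was thus more dominant in eWAT, by 1.76-fold in LF, 1.49-fold in HF and 1.76-fold in HFLF. On the log2 scale liver minus eWAT was −0.81 ± 0.16 in LF, −0.57 ± 0.13 in HF and −0.82 ± 0.11 in HFLF (SE, n = 6 against 6). The 2-sided exact permutation p was 0.00216 in each, the smallest that 924 assignments allow, and 0.00433 after Benjamini-Hochberg adjustment over the 6 tests of this ratio. The liver counts here also entered the choice of the family, so these tissue tests are not independent of it. The labels do not say whether a liver and an eWAT library of the same number come from 1 mouse; if they are taken as pairs, the differences are the same and the exact sign-flip test of 6 pairs gives an adjusted p of 0.0625, where its smallest possible p is 0.03125. Adding the near-copy miR-378c to the 3p count changed the 3 differences to −0.75, −0.52 and −0.76. Without liver LF 4 and HF 6 the differences were −0.84 in LF and −0.52 in HF, and without eWAT LF 1 and LF 4 the LF difference was −0.86. Between the groups in eWAT the ratio differed by 0.11 ± 0.15 for HF against LF, 0.03 ± 0.16 for HFLF against LF and −0.08 ± 0.08 for HFLF against HF. The exact permutation p was 0.494, 0.885 and 0.364, so no diet difference in the ratio exceeded the spread between eWAT libraries. In liver, as a description, the ratio was higher in HF by 0.34 ± 0.14 on the log2 scale against LF and by 0.32 ± 0.15 against HFLF, and the groups overlapped. Without LF 4 and HF 6 the liver mean was 25.5 ± 3.47 in LF and 34.4 ± 7.51 in HF (SD, n = 5 each), beside 26.4 ± 3.72 in HFLF (SD, n = 6).

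The near-copies made up a larger part of the family's reads in liver than in eWAT. The ratio of miR-378c to miR-378a-3p was 12.9 to 16.4% over the 18 liver libraries and 8.96 to 12.1% over the 18 eWAT libraries, without overlap. The ratio of miR-378d to miR-378a-3p was 2.23 to 5.64% in liver, with a median of 2.83%, and 1.61 to 2.32% in eWAT. These ranges overlapped slightly, and the 2 liver libraries at 5.64% were LF 4 and HF 6. Without these, the liver range of miR-378d was 2.23 to 3.35%. miR-378b stood at 0.714 to 1.43% of miR-378a-3p in liver and at 0.544 to 1.24% in eWAT, with wide overlap. miR-378a-3p accordingly held 79.1 to 83.9% of the family's reads in liver and 85.2 to 88.0% in eWAT. These tissue ratios are given as a description, with no test.

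**Figure D3:**
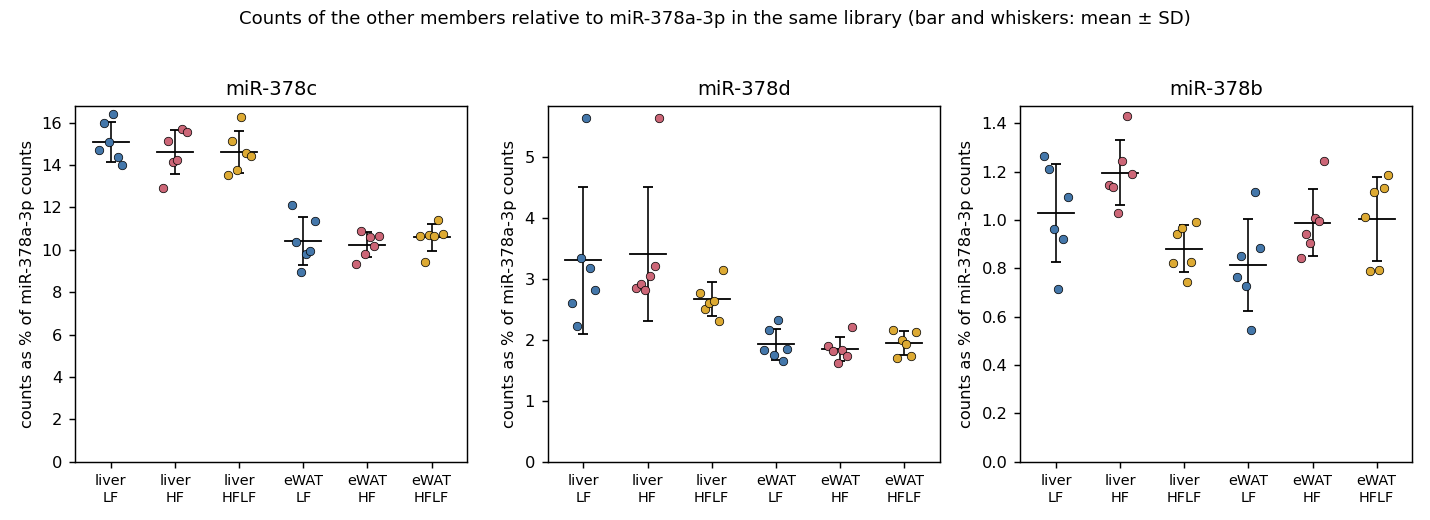
Reads of miR-378b, miR-378c and miR-378d as a percent of miR-378a-3p reads in every liver and eWAT library, by group (points are libraries, bar and whiskers are mean and SD, n = 6 a group, linear axes from 0). For miR-378c the liver libraries (12.9 to 16.4%) and the eWAT libraries (8.96 to 12.1%) do not overlap; for miR-378d liver LF 4 and HF 6 stand apart at 5.64%.

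The level of each member in liver against eWAT was tested within each group, in 1 edgeR fit over all 36 libraries and 681 miRNAs. Its direction depended on the scaling. miR-122-5p, the dominant hepatocyte miRNA, took 45.6 to 57.0% of all counts of a liver library and 0.0137 to 0.309% of an eWAT library. TMM factors over the 36 libraries were accordingly 0.575 to 0.807 in liver and 1.37 to 1.68 in eWAT. On the TMM scale all 5 members were estimated higher in liver in all 3 groups, whereas in plain CPM, without such factors, 5 of 5 in LF, 4 of 5 in HF (all but miR-378d) and 4 of 5 in HFLF (all but miR-378a-5p) were estimated lower in liver.

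On the TMM scale of the 36 libraries, miR-378a-3p ran from 2235 to 3455 CPM in liver LF (median 2668) and from 1185 to 3291 in eWAT LF (median 2034). In HF it ran from 3024 to 3600 CPM in liver (median 3205) and from 1896 to 2889 in eWAT (median 2296). In HFLF it ran from 2940 to 3809 CPM in liver (median 3113) and from 1825 to 3064 in eWAT (median 2512). Only the HF groups did not overlap. The liver level was higher in HF by 0.49 ± 0.17 on the log2 scale (edgeR adjusted p = 0.0168), while plain CPM gave the opposite, −0.66 (edgeR adjusted p = 0.0016). In LF the TMM estimate was 0.36 ± 0.17 (edgeR adjusted p = 0.0816; plain CPM −0.95), and in HFLF it was 0.36 ± 0.17 (edgeR adjusted p = 0.087; plain CPM −0.77). No tissue direction of the leading arm thus held under both scalings. With TMM the HF call was lost without eWAT HF 2 (0.43, edgeR adjusted p = 0.0532). The LF estimate passed the threshold without any 1 of liver LF 2, eWAT LF 3 or eWAT LF 5 (edgeR adjusted p = 0.0418, 0.0349 and 0.0150). The HFLF estimate passed it without any 1 of liver HFLF 2 or 4 or eWAT HFLF 2, 3, 5 or 6 (edgeR adjusted p from 0.00949 to 0.0334).

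miR-378a-5p on the same TMM scale ran from 80.6 to 137 CPM in liver LF and from 31.0 to 66.8 in eWAT LF, from 75.4 to 135 and 39.3 to 61.8 in HF, and from 92.0 to 154 and 39.2 to 72.5 in HFLF. The tissues did not overlap in any group. The liver was higher by 1.20 ± 0.21 in LF, 1.09 ± 0.21 in HF and 1.18 ± 0.21 in HFLF (edgeR adjusted p = 1.17e-05, 4.15e-05 and 1.43e-05), while plain CPM gave −0.10, −0.07 and 0.04. miR-378c was higher in liver by 0.92 ± 0.16, 1.01 ± 0.16 and 0.82 ± 0.16 (edgeR adjusted p = 2.02e-05, 3.63e-06 and 8.53e-05), while plain CPM turned the sign, to −0.39, −0.14 and −0.31. miR-378d was higher in liver by 1.13 ± 0.22, 1.38 ± 0.22 and 0.81 ± 0.21 (edgeR adjusted p = 5.07e-05, 1.89e-06 and 0.00201), while plain CPM gave −0.19, 0.23 and −0.32. miR-378b was called only in HF, at 0.78 ± 0.28 (edgeR adjusted p = 0.0214; plain CPM −0.38). Its estimate was 0.66 ± 0.28 in LF (edgeR adjusted p = 0.0525; plain CPM −0.65) and 0.15 ± 0.28 in HFLF (edgeR adjusted p = 0.689; plain CPM −0.98). The miR-378b call in HF was lost without eWAT HF 2 (edgeR adjusted p = 0.0554), and its LF estimate passed the threshold without liver LF 4 or without eWAT LF 5 (edgeR adjusted p = 0.0215 and 0.00485). Whether these tissue differences themselves differed between the groups was not tested.

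The libraries that stood apart moved these values. Without eWAT LF 1 and LF 4, liver over eWAT in LF on the TMM scale was 0.09 for miR-378a-3p, 0.96 for miR-378a-5p, 0.29 for miR-378b, 0.66 for miR-378c and 0.91 for miR-378d, with edgeR adjusted p of 0.701, 0.000798, 0.433, 0.0013 and 0.0021. Without liver LF 4 and HF 6 the LF values were 0.48 for miR-378a-3p and 0.84 for miR-378b, which then passed the threshold (edgeR adjusted p = 0.017 and 0.0075), and miR-378a-3p in HFLF was 0.49 (edgeR adjusted p = 0.0107). miR-378a-5p, miR-378c and miR-378d kept their calls in all 3 groups under both omissions on this scale.

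On the TMM scale, then, 3 of 5 members were called in LF, 5 of 5 in HF and 3 of 5 in HFLF, all higher in liver, and all of these lost the call or turned sign in plain CPM. The liver libraries of these tests are those by whose diet differences the family was chosen. The larger count in HF is therefore not independent of that choice. The background was 47.4%, 49.6% and 48.6% of 681 miRNAs called, of which 16.0%, 17.6% and 19.2% of those tested were higher in liver and 31.4%, 32.0% and 29.4% lower. On this scale the same 3, 5 and 3 members did not overlap between the tissues, against 28.5%, 35.2% and 41.9% of all miRNAs. In plain CPM 0, 1 and 1 of 5 did not overlap, which was miR-378a-3p in HF and HFLF, with eWAT above liver. By TMM 109 miRNAs were called higher and 214 lower in liver in LF, 120 and 218 in HF, and 131 and 200 in HFLF. By plain CPM the split was 40 and 422, 53 and 389, and 58 and 368.

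**Figure D4:**
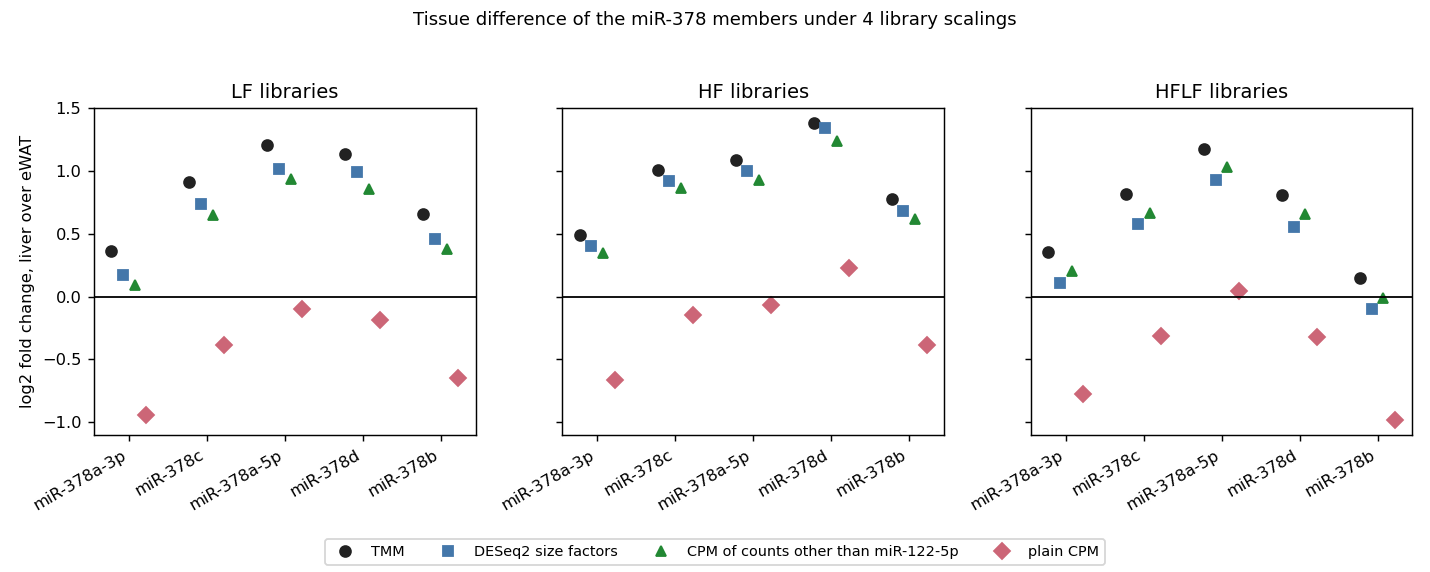
Log2 fold change of liver over eWAT (vertical axis) for each member in LF, HF and HFLF under 4 scalings: TMM, DESeq2 size factors, CPM of counts other than miR-122-5p and plain CPM. The estimates are highest with TMM for most members and lowest with plain CPM, where 13 of the 15 lie below 0.

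A change of scaling shifts all miRNAs of a library together, so the distance of a member from the median of all miRNAs is nearly fixed by construction, and it is given here as a description. The median of all 681 miRNAs was −0.60 in LF, −0.48 in HF and −0.27 in HFLF with TMM, −0.80, −0.62 and −0.50 with DESeq2's size factors, and −1.87, −1.66 and −1.39 with plain CPM. All 5 members lay above that median in every group. With TMM the distance was 0.96 to 1.80 in LF, 0.97 to 1.86 in HF and 0.42 to 1.45 in HFLF. With plain CPM it was 0.93 to 1.77, 1.00 to 1.89 and 0.40 to 1.43. The lowest of the 5 was miR-378a-3p in LF and HF and miR-378b in HFLF, and the highest was miR-378a-5p in LF and HFLF and miR-378d in HF.

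The other members correlated more strongly with miR-378a-3p in eWAT than in liver across the 18 libraries of each tissue, given here as a description. miR-378a-3p itself also varied more over the eWAT libraries, with a coefficient of variation of 23.7% against 13.7% in liver. The part of that wider range in the correlations was not tested. With miR-378a-3p, Pearson's r of log2 CPM in eWAT was 0.96 for miR-378c, 0.91 for miR-378d, 0.90 for miR-378b and 0.81 for miR-378a-5p. In liver it was 0.87 for miR-378c, 0.66 for miR-378b, 0.64 for miR-378d and 0.28 for miR-378a-5p. These values rested in part on the libraries that stood apart. Without eWAT LF 1 and LF 4, an omission chosen after seeing the data, r in eWAT was 0.92, 0.84, 0.81 and 0.69 for miR-378c, miR-378d, miR-378b and miR-378a-5p (n = 16). Without liver LF 4 and HF 6 it was 0.78 for miR-378c, 0.58 for miR-378d, 0.47 for miR-378b and −0.16 for miR-378a-5p (n = 16). Each Pearson's r was lower without them. Spearman's rank correlation in liver instead rose without LF 4 and HF 6 for miR-378c (0.75 to 0.80) and miR-378d (0.62 to 0.74). It fell for miR-378b (0.52 to 0.41) and miR-378a-5p (0.11 to −0.07). Libraries of 1 tissue share scaling factors and group structure, the near-copies may share reads, and miR-378b, miR-378d and miR-378a-5p have few reads. In both tissues, with and without those libraries, the lowest of the 4 values was that of miR-378a-5p, the other arm of the same hairpin.

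**Figure D5:**
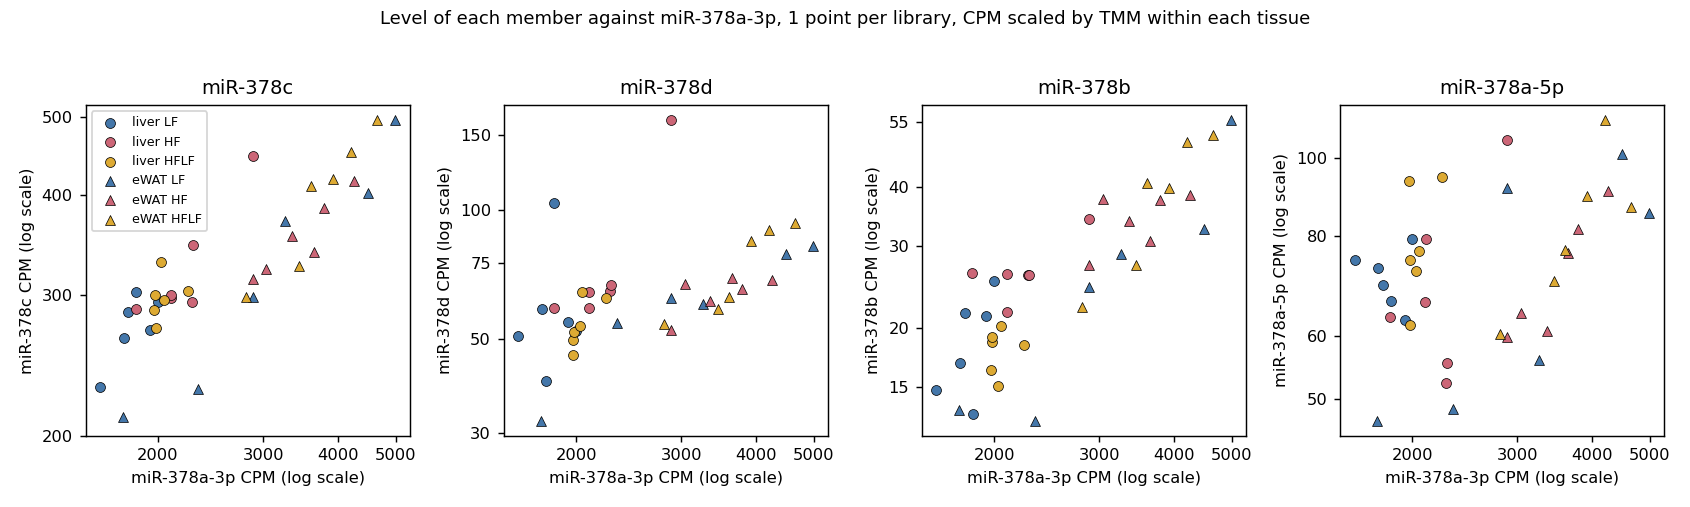
CPM of each other member against CPM of miR-378a-3p, scaled by TMM within each tissue, 1 point per library (circles liver, triangles eWAT, 18 each), coloured by group, with log axes. Points line up most tightly for miR-378c in eWAT (r = 0.96) and least for miR-378a-5p in liver (r = 0.28).

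Outside the family, the miRNAs with a mean of at least 100 CPM whose log2 levels resembled miR-378a-3p most in eWAT were miR-30c-2-3p (r = 0.77), miR-203-3p (0.76), miR-328-3p (0.75), miR-193a-5p (0.74) and miR-664-3p (0.74), among 168 candidates over 18 libraries. The same 5 led when deviations from group means were used, with r from 0.72 to 0.81. In liver, among 119 candidates, they were miR-1839-5p (0.73), miR-365-3p (0.70), miR-802-5p (0.62), miR-107-3p (0.57) and miR-20a-5p (0.55). Without the libraries that stood apart, 3 of these 5 in eWAT and 0 of 5 in liver were still among the 5 highest. By deviations from group means the liver list changed to miR-98-5p (0.74), miR-31-5p (0.72), miR-221-3p (0.70), miR-1839-5p (0.65) and miR-107-3p (0.62). Of this liver list too, 0 of 5 were still among the 5 highest without the libraries that stood apart. Their r was then 0.53, 0.49, 0.37, 0.34 and 0.28 in the same order. The eWAT list by deviations kept 3 of its 5. Over all 18 libraries no miRNA outside the family reached the r of miR-378c in either tissue.

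Other miRNAs that sit inside genes, not all of them metabolic, were set beside those of the Ppargc1b intron. The list held 11 miRNAs, among them the miR-103 and miR-107 of the pantothenate kinase genes, the miR-33 of Srebf2, the miR-335 of Mest and the miR-499 of Myh7b. In eWAT 7 of the 11 passed the filter and 0 of 7 were called in any diet comparison, with medians of −0.05, −0.04 and 0.03. Between the tissues on the TMM scale 1 was higher and 4 lower in liver in LF, 1 and 4 in HF, and 2 and 4 in HFLF, against 0 and 5, 1 and 4, and 1 and 4 in plain CPM. miR-107-3p was higher in liver by 1.64 ± 0.21, 1.90 ± 0.21 and 1.82 ± 0.21 in LF, HF and HFLF (plain CPM 0.33, 0.75 and 0.69). Its close relative miR-103-3p was lower in liver, at −1.40 ± 0.14, −1.30 ± 0.14 and −1.21 ± 0.14. Both arms of the Mest miRNA miR-335 were lower in liver, at −3.70, −3.49 and −3.72 for miR-335-5p and −3.69, −4.12 and −3.57 for miR-335-3p. miR-499-5p averaged 0.0797 to 0.738 CPM in the liver groups against 10.7 to 11.2 in the eWAT groups, and miR-33-5p was called in HFLF only, at 2.50 ± 1.00 (plain CPM 1.35). The median of the list on the TMM scale was −2.42, −1.31 and −1.21, against 0.92, 1.01 and 0.81 for the 5 members of the miR-378 family. These family medians were those of miR-378c or miR-378d, not of an arm from the Ppargc1b intron. On the TMM scale miR-378a-3p was at 0.36, 0.49 and 0.36 and miR-378a-5p at 1.20, 1.09 and 1.18. In plain CPM the values were −0.95, −0.66 and −0.77 for miR-378a-3p and −0.10, −0.07 and 0.04 for miR-378a-5p. In liver, as a description, the largest diet values among the 5 list members that passed the filter were those of miR-33-5p, 0.86 ± 0.86 for HFLF against LF at 1.5 to 2.7 CPM, and of miR-335-5p, 0.34 ± 0.24.

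A list of 21 miRNAs, of which 20 were in the count table, linked to mitochondria, to PGC-1 coactivators or to thermogenic fat was set beside the family. Whether its members act as 1 programme was not tested. In eWAT 19 passed the filter and 0 of 19 were called in any diet comparison, with medians of 0.04, −0.06 and −0.03. Between the tissues on the TMM scale 6 were higher and 9 lower in liver in LF, 7 and 9 in HF, and 8 and 8 in HFLF, and in plain CPM the split was 2 and 13, 3 and 13, and 3 and 12. miR-455-3p, which is known to promote brown adipogenesis, was higher in liver by 3.94 ± 0.24, 4.22 ± 0.24 and 4.43 ± 0.24, and stayed higher in plain CPM by 2.67, 3.04 and 3.29. miR-133a-3p, a muscle miRNA that represses Prdm16, was lower in liver, at −5.86 ± 1.00, −6.61 ± 1.05 and −5.56 ± 1.00, with means of 0.692 to 1.51 CPM in the liver groups. miR-193b-3p, linked to brown fat differentiation, was lower in liver, at −2.32 ± 0.97, −2.57 ± 0.97 and −3.56 ± 1.02. The list's median was −0.91, −0.73 and −0.33, against −0.60, −0.48 and −0.27 over all miRNAs. In liver, as a description, the largest diet values were those of miR-193b-3p, −1.22 ± 1.45 for HFLF against HF, of miR-494-3p, −1.20 ± 1.28, and of miR-181c-5p, 1.18 ± 0.58, the last 2 for HFLF against LF.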

How the data were processed

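Small RNA was sequenced from 18 liver and 18 eWAT libraries with the NEXTFLEX Small RNA-seq v3 kit, per the labels' protocols. Per the submitters' processing notes, the tools were cutadapt and Bowtie and the assembly was GRCm38.p6, with no version or setting for reads with several matches. The authors' deposited read counts stand in 2118 lines for 1966 mature miRNAs. For a miRNA with several lines the line with the highest total was used, and each member had 1 line. The authors also deposited log2 CPM tables per tissue, from which only values so named were taken. Column names were read by their letters (L or W for the tissue; C, H or R for LF, HF or HFLF, from the abbreviations). The members and lists were chosen with earlier results of these data known. Counts were filtered with filterByExpr (minimum count 10, minimum total 15) and tested with edgeR 4.0.16 (TMM, quasi-likelihood; adjusted p threshold 0.05) in R 4.3.3, within each tissue for diet groups and over 36 libraries for tissues; log2 CPM used a prior count of 2. Levels in CPM were computed from the deposited counts, not taken from the deposited CPM columns. The arm ratio was tested by exact permutation over libraries. The 5 members are given in every comparison, the 5 most similar miRNAs by r, and from the lists some of the called miRNAs, by size. Scripts were tested on simulated data. Other scalings, DESeq2 1.42.0, limma 3.58.1 (voom), no filter, summed lines, a replicate block and left-out libraries were the alternatives.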

Additional observations from a re-analysis of the deposited data

Results flagged for a closer look

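Of 36 sets of 6 libraries (5 members and the arm ratio in 6 groups), 6 held a library farther from its group than Dixon's 95% criterion allows, where chance would give about 1 in 20. Of these, 4 fall on the liver libraries HF 6 and LF 4, which also have the fewest detected miRNAs. In liver HF 6, miR-378b stood at 34.3 CPM against 21.6 to 26.2 in the other 5 HF libraries. miR-378c stood there at 448 CPM against 288 to 346, and miR-378d at 162.6 CPM against 59.0 to 66.6. In liver LF 4, miR-378d stood at 103.7 CPM against 39.8 to 58.8 in the other 5 LF libraries. miR-378a-3p in liver HFLF 1 was 2245 CPM, above 1973 to 2050 in the other 5. These CPM are scaled by TMM within liver. In plain CPM HFLF 1 was instead the lowest of its group for miR-378a-3p, at 2012 CPM. HF 6 then lay inside the range of the HF group for miR-378b (25.9 CPM) and miR-378c (338.5 CPM). For miR-378d, HF 6 and LF 4 stayed the highest of their groups in plain CPM. The ratio of miR-378a-3p to miR-378a-5p in eWAT HF 4 was 55.2, above 46.5 to 48.3 in the other 5.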

How the results depend on the processing

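Relative to the liver or eWAT values given above, TMM against plain CPM was the choice that changed most. In plain CPM liver over eWAT was reversed in LF for miR-378a-3p (−0.95), miR-378a-5p (−0.10), miR-378b (−0.65), miR-378c (−0.39) and miR-378d (−0.19), in HF for miR-378a-3p (−0.66), miR-378a-5p (−0.065), miR-378b (−0.38) and miR-378c (−0.14), and in HFLF for miR-378a-3p (−0.77), miR-378b (−0.98), miR-378c (−0.31) and miR-378d (−0.32). miR-378b in HFLF was also reversed with DESeq2's size factors (−0.10), DESeq2 (−0.10) and, added after seeing the data, plain CPM of counts other than miR-122-5p (−0.0069). The HF call of miR-378a-3p was lost without a filter (0.44, edgeR adjusted p = 0.0525) and in plain CPM without miR-122-5p (0.35, edgeR adjusted p = 0.0910), and that of miR-378d in HFLF with DESeq2's size factors (0.56, edgeR adjusted p = 0.0521).

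In eWAT, HF against LF was reversed for miR-378a-5p with DESeq2's size factors (−0.0056), no filter (−0.028), DESeq2 (−0.0053) and summed lines (−0.048), and for miR-378d with summed lines (−0.0081). Without eWAT LF 1 and LF 4 it was −0.16 for miR-378a-3p, −0.21 for miR-378a-5p, −0.045 for miR-378b, −0.14 for miR-378c and −0.15 for miR-378d, and HFLF against LF was −0.072 for miR-378a-3p and −0.038 for miR-378a-5p. None of these differences passed the threshold. The arm ratio in eWAT, HFLF against LF, was −0.021 without those 2 libraries. DESeq2 called 16 miRNAs in HF against LF and 33 in HFLF against LF, all lower, where edgeR called 0.

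With 1 library left out at a time, HF against LF in eWAT ran from −0.093 to 0.22 for miR-378a-3p, from −0.14 to 0.10 for miR-378a-5p, from −0.066 to 0.21 for miR-378c and from −0.13 to 0.13 for miR-378d. The arm ratio of HFLF against LF in eWAT ran from −0.078 to 0.10. edgeR calls in HFLF against LF in eWAT ran from 0 to 17, with 12 without LF 2, 15 without LF 5 and 17 without LF 6. The liver over eWAT difference of the arm ratio kept its direction and passed the threshold in each of these omissions.

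Same-numbered libraries did not deviate together (median correlation of deviations 0.04 in liver, 0.01 in eWAT and −0.03 between tissues), so the replicate block was not used above; whether 1 mouse gave both tissues of a number is not known from the labels. With a replicate block the arm ratio differences between the tissues were −0.81, −0.57 and −0.82 in LF, HF and HFLF, but the exact sign-flip test of 6 pairs cannot give a p under 0.03125, and its adjusted p was 0.0625. The block gave 290, 323 and 306 calls between the tissues in LF, HF and HFLF and 0 in each eWAT diet comparison; miR-378b in LF then passed the threshold (0.78, edgeR adjusted p = 0.0458). In liver, plain CPM moved HFLF against LF to 0.32 for miR-378a-3p and 0.29 for miR-378c, with the median of all miRNAs at 0.16. The causes were not tested. miR-378b had 78 to 760 reads a library, fewer than the other members.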
